A study of Mus musculus with 8 samples.

Results

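The glucocorticoid pathway was read from 10 genes in the cochlear soft tissue of normal mice: the receptors Nr3c1 and Nr3c2, the enzymes Hsd11b1 and Hsd11b2, and the targets Sgk1, Fkbp5, Tsc22d3, Zbtb16, Dusp1 and Depp1. They were chosen by gene symbol, as the probe sets whose platform annotation names that gene alone, which gave 23 probe sets for the 10 genes among 18193 genes measured. The tissue came from 8 CBA/CaJ mice, an inbred strain with good hearing, with the ears of each mouse pooled on 1 array. All 8 arrays form 1 group of normal cochlea, in which every mouse was killed with urethane at 300 mg/kg and perfused with saline to clear the blood, and spiral ligament, organ of Corti and modiolus were then collected as 1 sample. The labels give no sex, age, time of day or hybridization batch and no treated group, so the comparisons are between genes of 1 array and its background, and between mice. Mouse numbers are names without an order.

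Glucocorticoids, in mice chiefly corticosterone, enter the cell and bind the glucocorticoid receptor, which waits in a complex with heat shock proteins and then moves to the nucleus to switch genes on or off. The mineralocorticoid receptor binds the same hormone, and a pair of enzymes sets how much of it a cell sees, one regenerating the active form and the other inactivating it. In the inner ear both receptors are known from the stria vascularis and spiral ligament, where steroid hormones act on ion transport, and glucocorticoids are given to patients with sudden hearing loss.

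Of the 10 genes, 9 were detected and Hsd11b2 was not. A gene was called detected when the signal of its brightest probe set exceeded a background threshold on all 8 arrays, which 62.0% of the 18193 genes did. Sets of the _x_at type, which can bind related transcripts, were used only where a gene had no other. Each array had its own threshold, set at percentile 95 among 145 probe sets for olfactory and vomeronasal receptors and for genes of unrelated organs, and the thresholds lay between 46.7 and 87.3. Signals are MAS5 intensities in arbitrary units, given as mean ± SD over the mice (n = 8), and a signal cannot be set against that of another probe set. In a whole tissue, fewer cells of a type and less RNA per cell cannot be told apart. With 8 arrays, precision is set by their number.

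The arrays correlated at r = 0.945 to 0.960 (computed over genes' probe sets, which do not count as replicates). Mouse 1 stood apart on the first principal component, which held 37.5% of the variance of the detected genes. It was the lowest mouse for 24.2% and the highest for 34.1% of them. Most results that rest on it are therefore given with and without it. The 3′/5′ ratio of the control probe sets, a measure of RNA quality that is higher in degraded RNA, was 1.54 for Gapdh in mouse 1, with the others at 1.39 to 1.52. For beta-actin it was 2.03, within the range of all mice, 1.86 to 2.23. Markers of the labelled tissue were set beside the 62.0% of all genes that were detected. All 10 of 10 of spiral ligament fibrocytes and 7 of 7 of strial marginal cells were detected. Of strial intermediate cell markers 6 of 8 were detected (75%), with Tyrp1 and Pmel below background on all arrays. Markers of macrophages (10 of 10) and osteoblasts (5 of 5) were also all detected, so full detection is not particular to the labelled tissue. Of measured hair cell markers 5 of 8 were detected (62.5%), near the share of all genes, so that count is no check of hair cells.

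**Figure D1:**
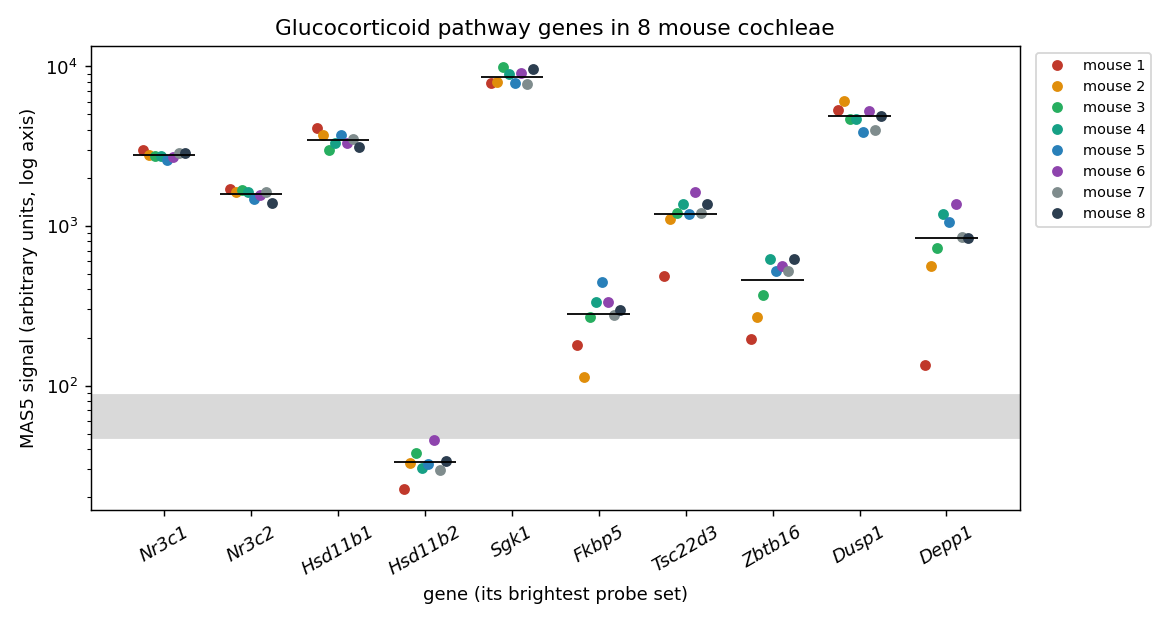
Signal of the brightest probe set, leaving out _x_at sets, of each of the 10 genes (log axis, arbitrary units), 1 point per mouse and a bar at the mean of the 8 mice. The grey band spans the background thresholds of the arrays, 46.7 to 87.3: Hsd11b2 lies below it in every mouse, and mouse 1 is the lowest point of Tsc22d3, Zbtb16 and Depp1.

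Both receptors were detected in every mouse, and their brightest probe sets varied little. Nr3c1 encodes the glucocorticoid receptor, and its brightest probe set (1421867_at) measured 3011, 2788, 2755, 2745, 2606, 2706, 2868 and 2854 in mice 1 to 8. The mean was 2792 ± 122, and the highest mouse was 1.16 times the lowest. Its SD between mice was 0.06 on the log2 scale, smaller than in all but 2.40% of the 11280 detected genes, whose median SD was 0.18. Among the 500 detected genes nearest in signal, 7.0% had a smaller SD. The spread was smallest in that probe set. The other detected sets had SDs of 0.08 (1460303_at), 0.14 (1457635_s_at) and 0.19 (1453860_s_at), against the median of 0.18. With the mean of all probe sets of the gene, which takes in sets below background, the SD was 0.17.

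The other 5 probe sets of Nr3c1 did not all read alike. The sets 1460303_at and 1457635_s_at were detected at 1564 ± 92.1 and 1591 ± 155, and 1453860_s_at at 110 ± 14.9, just above background. In 1457635_s_at the SD was 0.14 (log2) and mouse 1 was lowest, at 1320 against 1504 to 1816. In the brightest set mouse 1 was highest, as it was in 1460303_at, at 1717 against 1454 to 1629. The remaining sets, 1421866_at (above background on 2 arrays) and 1431378_at (on 0), were not detected. The brightest set and 1457635_s_at did not vary together over the mice (r = -0.33, exact permutation p = 0.429, adjusted p = 0.666).

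Nr3c2, the mineralocorticoid receptor that in kidney and colon mediates aldosterone action, has a single probe set on the array (1435991_at). It measured 1713, 1629, 1688, 1629, 1486, 1554, 1636 and 1404 in mice 1 to 8, a mean of 1592 ± 105. Mouse 8 was lowest, and the signal was at least 17.0 times the background threshold of its array in every mouse. Its SD of 0.10 (log2) was smaller than in all but 12.5% of the detected genes.

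The enzymes lay on opposite sides of the background. Hsd11b1, the reductase that turns inactive 11-dehydrocorticosterone back into corticosterone, measured 4104, 3735, 3011, 3312, 3709, 3311, 3533 and 3106 in mice 1 to 8 (3477 ± 364). Mouse 1 was highest and mouse 3 lowest, a ratio of 1.36. Hsd11b2, the dehydrogenase that inactivates corticosterone and so leaves the mineralocorticoid receptor to aldosterone in kidney, measured 22.4, 32.9, 37.5, 30.3, 32.1, 45.8, 29.5 and 33.7 (33.0 ± 6.73). Its probe set was below the threshold on all 8 arrays. A signal below background limits what this probe set can show and does not establish that the RNA is absent, for instance from a rare cell type.

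The kinase Sgk1 and the phosphatase Dusp1 were bright in every mouse. Sgk1, which keeps epithelial sodium channels at the cell surface, measured 7874, 8021, 9916, 8982, 7880, 9054, 7765 and 9640 in mice 1 to 8 (8641 ± 865). Its SD of 0.14 was larger than in 33.3% of all detected genes, and larger than in 69.8% of the 500 nearest in signal. Dusp1, which dephosphorylates the stress kinases p38 and JNK and also responds rapidly to handling and injury, measured 5360, 6099, 4707, 4671, 3898, 5263, 4017 and 4907 (4865 ± 722). Mouse 2 was the highest and mouse 5 the lowest, 1.56 times apart, and 89.4% of the 500 genes of nearest signal had a smaller SD than its 0.21.

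Sgk1 is also the member whose promoter sequence holds a complete receptor-binding motif, shown here because such motifs are how the receptor recognizes its targets. The motif searched was AGAACA and TGTTCT separated by any 3 bases, a palindrome that reads the same on both strands, in windows from 250 bases before to 50 bases after annotated transcription starts (RefSeq, GRCm38.p6). It occurred in 3 of 32851 such windows (0.00913%), and 1 of the 3 belongs to Sgk1, at chr10:21993640-21993939 on the plus strand, with the motif in capitals from 189 to 175 bases before the start. The same window of a Tsc22d3 start, chrX:140600473-140600772 on the minus strand, holds only a single hexamer, TGTTCT, in capitals from 185 to 180 bases before the start, and is shown for contrast.
Sgk1: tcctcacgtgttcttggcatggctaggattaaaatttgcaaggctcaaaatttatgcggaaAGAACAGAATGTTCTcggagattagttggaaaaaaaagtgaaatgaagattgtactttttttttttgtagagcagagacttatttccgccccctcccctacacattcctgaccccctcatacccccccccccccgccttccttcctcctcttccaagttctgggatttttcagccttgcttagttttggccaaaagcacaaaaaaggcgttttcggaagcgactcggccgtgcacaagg
Tsc22d3: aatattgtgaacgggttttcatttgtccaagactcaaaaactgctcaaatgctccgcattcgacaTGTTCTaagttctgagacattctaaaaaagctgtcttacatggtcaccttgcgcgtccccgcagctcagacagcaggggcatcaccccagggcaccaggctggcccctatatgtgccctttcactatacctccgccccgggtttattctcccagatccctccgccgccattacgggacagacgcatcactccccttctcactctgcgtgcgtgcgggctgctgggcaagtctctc
Windows with at least 1 hexamer on either strand (AGAACA or TGTTCT, which the complete motif contains) made up 19.0% of the 32851. Of the 10 genes, 7 had an entry with 14 windows in all, 4 of which held a hexamer: 3 of the 6 starts of Sgk1 and 1 of the 3 of Tsc22d3. The windows of Nr3c2, Hsd11b1, Fkbp5, Dusp1 and Depp1 held none. These matches describe letters in short windows and say nothing of binding in these tissues.

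The targets Depp1, Tsc22d3, Zbtb16 and Fkbp5 differed widely between mice. Each had an SD over 0.5 (log2), which 2.66% of the detected genes had, and their SDs stood above 97.8% to 99.8% of all detected genes. Single mice carried part of this. Without mouse 1 the SD of Depp1 was 0.44, that of Zbtb16 0.45 and that of Tsc22d3 0.19, all under 0.5, and without mouse 2 that of Fkbp5 was 0.40. Without mouse 1 the SDs of Depp1, Zbtb16 and Fkbp5 stood above 96.8%, 96.9% and 98.8% of the detected genes, and that of Tsc22d3 above 68.2%. Depp1, a gene induced by FOXO factors that acts in autophagy, measured 135 in mouse 1 and 561, 729, 1198, 1067, 1372, 855 and 837 in mice 2 to 8. Mouse 1 did not overlap with the others, and its signal was 6.75-fold below their geometric mean. Mouse 6 was highest, and the mean of all mice was 844 ± 387.

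Tsc22d3 encodes GILZ, a leucine zipper protein that mediates much of the anti-inflammatory action of glucocorticoids. It measured 483 in mouse 1 and 1100, 1203, 1372, 1194, 1625, 1209 and 1381 in mice 2 to 8 (1196 ± 331). Mouse 1 was again the lowest, 2.67-fold below the geometric mean of the others.

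Zbtb16, a zinc finger transcription factor also called PLZF, measured 195, 269, 369, 625, 524, 560, 524 and 624 in mice 1 to 8 (461 ± 164). Here mice 1, 2 and 3 were all below the other 5.

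Fkbp5, the co-chaperone that lowers the receptor's affinity for hormone and is itself induced by it, measured 180, 113, 268, 336, 444, 336, 278 and 300 in mice 1 to 8 (282 ± 101). It was lowest in mouse 2, 2.63-fold below the geometric mean of the others, and next lowest in mouse 1. Its signal is the nearest to background of the 9 detected genes, 1.90 times the threshold in mouse 2. The further probe sets of Fkbp5, 1447736_at and 1448231_at, were below background on all arrays, so no separate set checks this pattern.

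The low values of mouse 1 were among the lowest of all genes. In that mouse, Depp1 was the lowest of all 11280 detected genes relative to the other mice, Tsc22d3 was the 21st and Zbtb16 the 31st. A total of 112 detected genes (0.993%) lay more than 2-fold below the other mice there. After Depp1 the next in that order were Fabp4, Sfpq, Hspa1b and Hspa1a, chosen for naming because of these values. Hspa1b, an inducible heat shock protein gene, measured 1647 in mouse 1 and 3420 to 8885 elsewhere. In mouse 2, Fkbp5 was the 7th lowest and Zbtb16 the 22nd lowest of the 11280.

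The ranks depended in part on how probe sets were read. Depp1 stayed the lowest gene of mouse 1 under quantile normalization, median scaling, log2 of the signal plus 32 and the mean of all probe sets of a gene. With the mean of all probe sets, which takes in sets below background, Tsc22d3 ranked 1626 in mouse 1 (log2 difference -0.38 in place of -1.41) and Zbtb16 179 (-0.99 in place of -1.30). With that mean Fkbp5 in mouse 2 lay above the other mice (log2 difference 0.64 in place of -1.39).

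**Figure D2:**
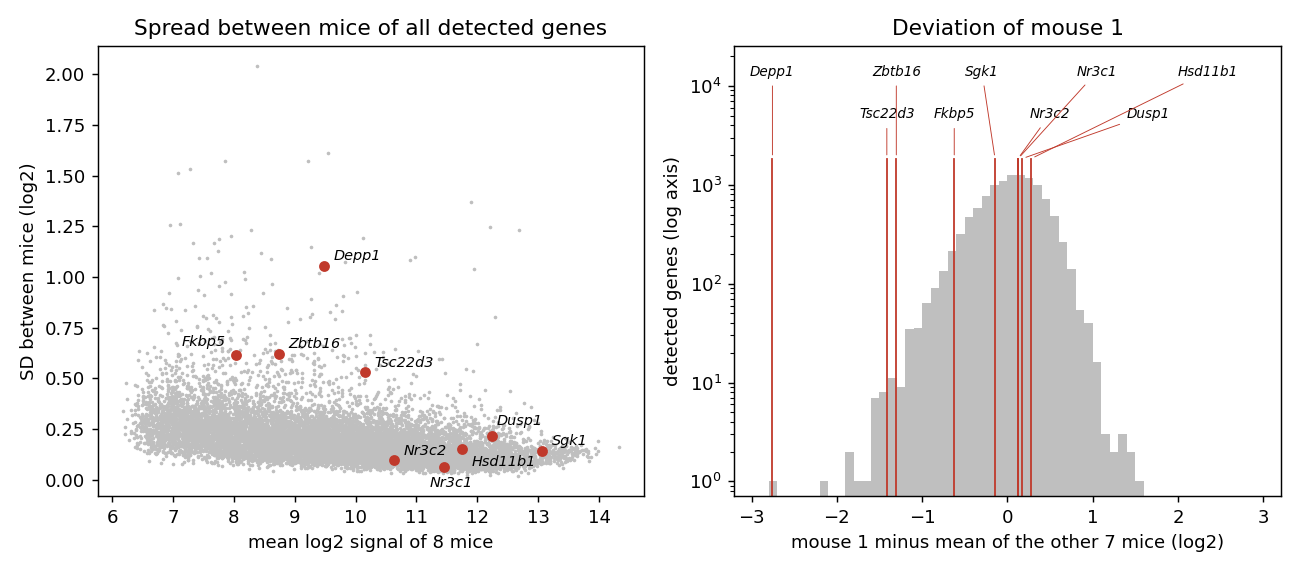
Left, SD between the 8 mice against mean log2 signal for the 11280 detected genes (grey) with the 9 detected glucocorticoid genes in red, of which Depp1 has the largest SD, 1.06. Right, number of detected genes (log axis) by the log2 difference of mouse 1 from the mean of the other mice, with red lines at the 9 genes: Depp1 is at -2.75 and the receptors at 0.13 and 0.12.

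Separate probe sets of Depp1 and of Zbtb16 varied together over the mice. The second set of Depp1 (1433837_at) measured 175 in mouse 1 and 434 to 930 elsewhere, and followed the first at r = 0.97 (rho = 0.93, exact permutation p = 0.000397, adjusted p = 0.0243). For Zbtb16 the set 1419874_x_at, of a type that can bind related transcripts, measured 282 in mouse 1, 356 in mouse 2 and 531 to 989 elsewhere. It followed 1439163_at at r = 0.98 (rho = 0.93, exact permutation p = 0.000174, adjusted p = 0.0232). Of 4785 genes with at least 2 detected probe sets, 5.77% passed this test after adjustment over all of them and 25.2% had an unadjusted exact permutation p under 0.05. The second set of Tsc22d3 (1425281_a_at) measured 287 in mouse 1, 329 in mouse 8 and 409 to 583 in the other 6, and its agreement with the first did not pass (r = 0.75, rho = 0.57, exact permutation p = 0.0354, adjusted p = 0.169). By rank correlation neither Depp1 nor Zbtb16 passed (rho 0.93, exact permutation p = 0.00223, adjusted p = 0.0758), and without any 1 of the 8 mice neither passed, with Depp1's adjusted p highest, 0.125, without mouse 1.

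**Figure D3:**
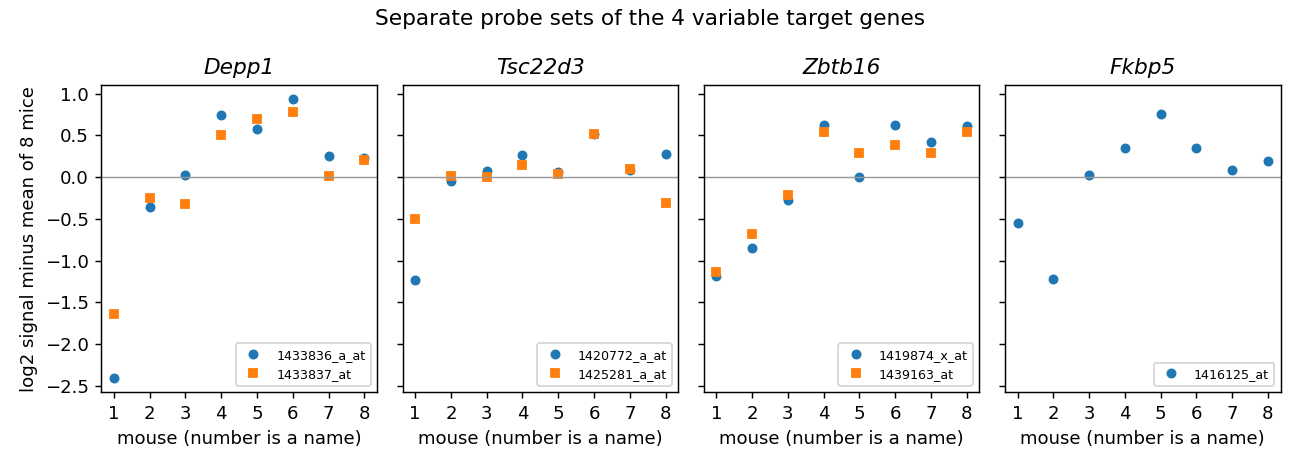
Log2 signal of each detected probe set of Depp1, Tsc22d3, Zbtb16 and Fkbp5, minus its mean over the 8 mice, with 1 point per mouse. Both sets of Depp1 and of Zbtb16 are lowest in mouse 1, as are both sets of Tsc22d3, while the single set of Fkbp5 is lowest in mouse 2.

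Depp1, Tsc22d3 and Zbtb16 were all lowest in mouse 1, and Fkbp5 in mouse 2. Depp1 and Tsc22d3 correlated over the 8 mice at r = 0.97 (exact permutation p = 0.00169) and rho = 0.76 (exact permutation p = 0.0368), with an adjusted p of 0.152. Without the mice farthest from the median of Tsc22d3, mice 1 and 6, r was 0.66, and without mouse 1 alone it was 0.79 (exact permutation p = 0.0325). With the mean of all probe sets of each gene it was 0.55. Zbtb16 followed Depp1 at r = 0.89 (exact permutation p = 0.00193; rho = 0.79, exact permutation p = 0.0279; adjusted p = 0.156), which became 0.57 without mice 1 and 2. It followed Tsc22d3 at r = 0.85 (exact permutation p = 0.00193; rho = 0.88, exact permutation p = 0.00724; adjusted p = 0.156), which was 0.86 without mice 1 and 6 and 0.69 without mouse 1. Fkbp5 followed Zbtb16 at r = 0.79 (exact permutation p = 0.0241; rho = 0.71, exact permutation p = 0.0576; adjusted p = 0.267), and r was 0.35 without mice 1 and 2. The other pairs with Fkbp5 were weaker by Pearson's r. With Depp1 it was 0.62 (exact permutation p = 0.127; rho = 0.86, exact permutation p = 0.0107; adjusted p = 0.440) and 0.61 without mice 1 and 2. With Tsc22d3 it was 0.49 (exact permutation p = 0.185; rho = 0.55, exact permutation p = 0.171; adjusted p = 0.506) and 0.05 without those mice. Among the detected genes, 0.257% correlated with Tsc22d3 at least as strongly as Depp1 did, and 12.5% at least as strongly as Zbtb16 did. For Zbtb16 with Depp1 that share was 2.06%. For Fkbp5 it was 1.69% with Zbtb16, 10.4% with Depp1 and 26.0% with Tsc22d3. Without mouse 1 alone, r was 0.80 for Zbtb16 with Depp1. For Fkbp5 it was then 0.84 with Zbtb16, 0.81 with Depp1 and 0.51 with Tsc22d3.

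None of these correlations passed the test across all genes. Every detected member was set against every detected gene, 101475 pairs in all, and 0 of them (0.0%) passed the exact permutation test after Benjamini-Hochberg adjustment. The lowest adjusted p was 0.0812, and rank correlation also gave 0. At an unadjusted exact permutation p under 0.05 there were 15793 pairs (15.6%), against 8 of the 36 pairs among the members (22.2%). The shared low values above are therefore a description of these 8 mice.

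Of the 8 correlations of Sgk1 and Dusp1 with the 4 variable targets, only that of Dusp1 with Fkbp5 had an unadjusted exact permutation p under 0.05. With Depp1, r was 0.37 for Sgk1 and -0.41 for Dusp1. Sgk1 ran opposite to Hsd11b1 (r = -0.90, exact permutation p = 0.00365; rho = -0.83, exact permutation p = 0.0154; adjusted p = 0.181). This held at r = -0.93 without mice 1 and 3 and at -0.95 without mouse 1, but 4.16% of the detected genes correlated with Hsd11b1 as strongly or more. Dusp1 ran opposite to Fkbp5 (r = -0.78, exact permutation p = 0.0207; rho = -0.71, exact permutation p = 0.0576; adjusted p = 0.257), and r was -0.33 without mice 1 and 2. The receptor Nr3c1 ran opposite to Depp1 (r = -0.79, exact permutation p = 0.0235; rho = -0.71, exact permutation p = 0.0576; adjusted p = 0.265), and Hsd11b1 opposite to Tsc22d3 (r = -0.74, exact permutation p = 0.0219; rho = -0.74, exact permutation p = 0.0458; adjusted p = 0.261). Without mouse 1 these were -0.47 and -0.45, and without the farthest mice, 1 and 5 or 1 and 3, they were -0.47 and -0.77. As many as 26.9% of the detected genes correlated with Hsd11b1 at least as strongly as Tsc22d3 did. That share was 2.87% for Nr3c1 with Depp1 and 1.98% for Fkbp5 with Dusp1. Without mouse 1 alone, r of Dusp1 with Fkbp5 was -0.75.

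**Figure D4:**
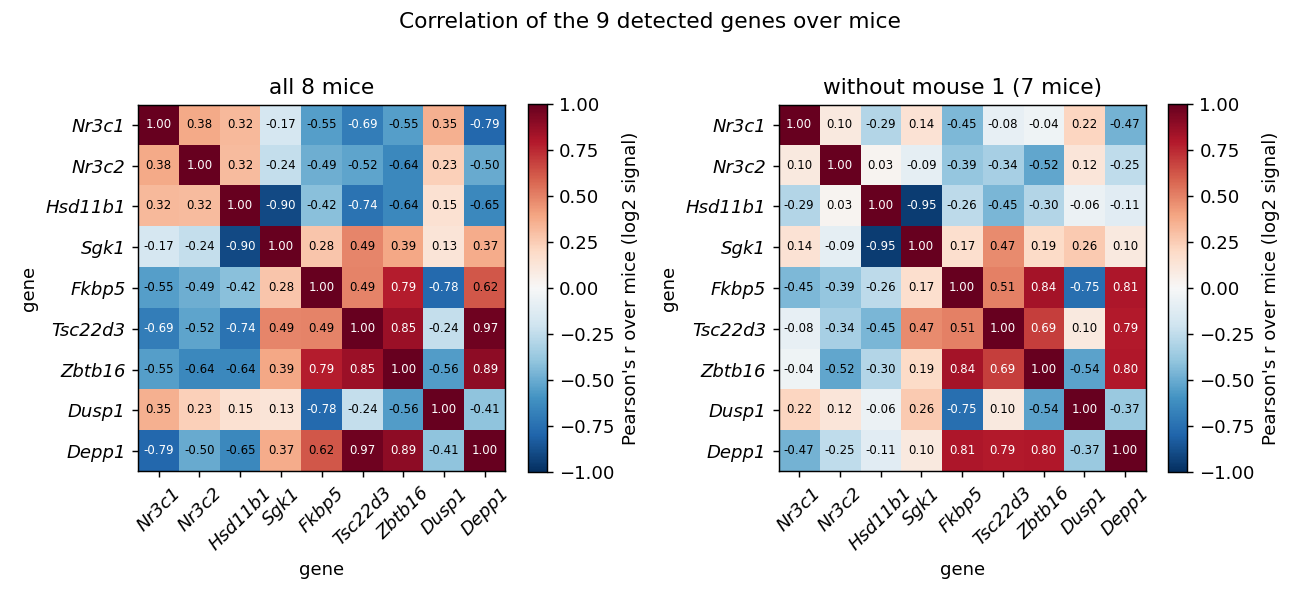
Pearson's r over mice between the log2 signals of the 9 detected genes, with all 8 mice on the left and without mouse 1 on the right. Depp1, Tsc22d3 and Zbtb16 are positively correlated in both panels (0.85 to 0.97, and 0.69 to 0.80 without mouse 1), while Hsd11b1 and Sgk1 are at -0.90 and -0.95.

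The genes most like each member over the 8 mice were found by Pearson's r among all detected genes. Depp1 was followed most closely by Mdm1 and Niban3 (both r = 0.97), with Tsc22d3 the third. Tsc22d3 was followed by Riok2 (0.99), St8sia4 (0.98) and Slc39a1 (0.98), and Zbtb16 by Zfp280d (0.97), Xbp1 (0.97) and Maco1 (0.96). For Fkbp5 they were Bpifa1 (0.95), Nid1 (0.92) and Lox (0.91), and for Dusp1 Tec (0.94), Jpt1 (0.92) and Aars2 (0.92). Hsd11b1 was followed by Alkbh7 (0.997), Poli (0.99) and Exoc1 (0.99), and Sgk1 by Arf6 (0.98), Actb (0.97) and Golga7 (0.97). Nr3c1 was followed by Gas7, Zfp335 and Gtf3c6 (all 0.97), and Nr3c2 by Cotl1 (0.97), 9130401M01Rik (0.94) and Lss (0.94). Over these 27 pairs rho was 0.52 or more and the unadjusted exact permutation p from 2.48e-05, the smallest that 40320 orderings can give, to 0.00585, with adjusted p from 0.0812 to 0.198. Without the farthest pair of mice r ranged from 0.24 (Fkbp5 with Lox) to 0.995 (Hsd11b1 with Alkbh7). Without mouse 1 alone it ranged from 0.79 (Depp1 with Tsc22d3) to 0.995 (Hsd11b1 with Alkbh7).

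Other glucocorticoid-responsive genes were nearly all detected. Of 24 such genes 22 were detected (91.7%, against 62.0% of all genes). Glutamine synthetase, Glul (10076 ± 939), the feedback inhibitor of the EGF receptor Errfi1 (7929 ± 816) and Tsc22d1 (7492 ± 618) were among them. The amino acid enzyme gene Tat was below background on all arrays, and the kinase gene Map3k6 was above it on 2. Of the 22 detected genes 6 were lowest in mouse 1 (27.3%, near the 24.2% of all detected genes), and their median log2 difference of mouse 1 from the other mice was -0.01, against 0.06 over all detected genes. More than 2-fold low in mouse 1 was 1 of the 22 (4.55%, against 0.993% of all detected genes), Lcn2, at 241 against 147 to 1376 in the others. It encodes a lipocalin of neutrophil granules, was lowest in mouse 7, and had the largest SD of the list, 1.15.

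The receptor's chaperones and co-regulators were all detected, 15 of 15 measured (100%, against 62.0% of all genes). Hspa8 (12603 ± 1253), the co-activator Ncoa3 (6289 ± 355) and Hsp90aa1 (8266 ± 1502), the inducible HSP90 that holds the receptor ready for hormone, were among them. Hsp90aa1 measured 5515 in mouse 1 and 7536 to 10167 in the others. The co-chaperone Dnajb1 was the most variable, at 2786 in mouse 1 and 3045 to 4835 elsewhere. In all 7 of the 15 were lowest in mouse 1 (46.7%, against 24.2% of all detected genes), with a median difference of -0.07.

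Genes of steroid synthesis and delivery were mostly below background, with 29.4% detected against 62.0% of all genes. Of 17 measured, 5 were detected: Abcb1a (733 ± 120), which pumps steroids out of cells, Cyp11a1 (341 ± 52.1), which makes pregnenolone from cholesterol, H6pd (351 ± 44.8), which supplies the cofactor of Hsd11b1, Star, and the corticotropin-releasing hormone receptor Crhr1 (90.6 ± 18.3). The genes Crh, Crhr2 and Abcb1b were below background on all arrays, and so were 11 of the 17 in all. H6pd was highest in mouse 1, at 425 against 299.5 to 412, as was Hsd11b1.

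A list of genes linked to mineralocorticoid-responsive sodium transport also held Per1, which stands in other lists as well. Of its 13 measured genes 11 were detected (84.6%, against 62.0% of all genes). The pump subunit Atp1b1 (10624 ± 1044), the kinase Wnk1 (6053 ± 373) and the ubiquitin ligase Nedd4 (5744 ± 191) were among them. The sodium channel subunit Scnn1g was above background on 1 array and the thiazide-sensitive cotransporter Slc12a3 on 0. Of other steroid and related receptors 3 of 5 were detected (60%, near the 62.0% of all genes). These were Esr1 (153 ± 18.0) and the estrogen-related receptors Esrra (225 ± 31.3) and Esrrb (3947 ± 453). Esr2 was below background on all arrays and Pgr was above it on 6.

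Immediate early and clock genes, some of which respond to glucocorticoids, were lowest in mouse 1 more often than the 24.2% of all detected genes, a difference that was not tested. They were 5 of 14 detected immediate early genes (35.7%), with a median difference of mouse 1 of -0.30 (log2), and 7 of 16 detected clock genes (43.8%), with a median of -0.16. Of 17 immediate early genes 14 were detected (82.4%, against 62.0% of all genes). Among them were Klf6 (4824 ± 691), Egr1 (2539 ± 573) and Klf4 (1816 ± 135). Nr4a1 was the most variable, at 552 and 564 in mice 2 and 3 and 138 to 320 in the others. Fosb, Junb and Socs3 were not detected. Egr1 was highest and Klf6 lowest in mouse 1, and 2 of the 14, Atf3 and Ccn1, were more than 2-fold low there. Of 17 clock genes 16 were detected (94.1%), including Nr1d2 (4622 ± 378), Tef (2824 ± 197) and Dbp (2276 ± 336), but not Bhlhe41. Per2, a core clock gene that glucocorticoids also regulate, varied most, at 168 in mouse 1, 215 in mouse 2 and 260 to 528 in the others. Per1, induced by glucocorticoids as well as by the clock, measured 281 in mouse 1 and 237 to 418 in the others.

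Over these lists 84 of 106 genes that are not members were detected, against 62.0% of all genes. Of the 84, 27 (32.1%) were lowest in mouse 1, against 24.2% of all detected genes. More than 2-fold low in mouse 1 were 3 of the 84 (Lcn2, Atf3 and Ccn1), which is 3.57% against 0.993% of all detected genes. Of the 9 detected members 3 were that low.

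Marker genes of other cells also differed in mouse 1. Of 15 lists of cell type markers, the summed signal was lowest in mouse 1 for osteoblasts (5 of 5 measured genes detected; 4311, against 5218 to 10036 in the other mice). Of these 5 genes only Dmp1 was lowest in mouse 1, while Col1a1, Ibsp and Sp7 were lowest in mouse 8 and Alpl was highest in mouse 1. The summed signal was highest in mouse 1 for 5 lists. Central nervous system glia markers (4 of 8 detected) summed to 9067 in mouse 1 and 8522 in mouse 6, where Depp1 was highest, against 4407 to 5097 in the other mice. Their member Mobp, a myelin protein gene of oligodendrocytes, measured 2331 and 2262 in mice 1 and 6 and 48.9 to 201 elsewhere. Marginal and Schwann cell markers were also highest in mouse 1, as were those of neurons (9 of 10 detected; 29735, against 11587 to 28563) and endothelium (8 of 10 detected; 8061, against 6014 to 6687). Emcn made up 4493 of the endothelial sum in mouse 1. Of the 8 detected endothelial genes 3 were highest in mouse 1 and 3 were below the mean of the other mice there. Neutrophil markers (4 of 9 detected; Mpo was above background on 7 arrays and Elane on 3) summed to 6605 in mouse 1 and 1807 in mouse 7, where Depp1 (855) and Tsc22d3 (1209) lay among the other mice. Adipocyte markers (2 of 8 detected; Adipoq was above background on 7 arrays) summed to 12876 in mouse 1 and 11048 to 19332 in the others, but Scd1 made up 12573 of the sum in mouse 1. The other detected marker, Fabp4, was lowest in mouse 1, at 88.6 against 106.8 to 5517. Skeletal muscle markers (1 of 10 detected) summed to 10386 in mouse 5, where Fkbp5 was highest (444), against 301 to 1204 in the others. The adipocyte sum was also highest in mouse 5. Such sums add probe sets of unlike brightness and follow the brightest of a list. The part of cell composition and of RNA quality in the low values of Depp1, Tsc22d3 and Zbtb16, and in the spread of Fkbp5, was not tested.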

How the data were processed

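Cochlear RNA of 8 mice was measured on Affymetrix mouse whole-genome arrays, 1 per mouse. The deposited values are linear intensities per probe set (MAS5 signals), for which the authors used MAS5, per the submitters' processing notes. Neither version nor settings were found in the labels. The trimmed mean of the values was 500.0 on every array, so they had been brought to a common scale before deposit. MAS5 subtracts mismatch probe signal, which makes low values noisy. There were 0 other sample columns and 0 pairs of identical arrays.

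Of 45101 probe sets 34945 named 1 gene, 34741 of them matched by Entrez identifier to current symbols. A gene was read by its brightest probe set (_x_at sets where there was no other), as log2 of the signal with a floor of 1. Correlations over the mice were tested by exact permutation over all 40320 orderings, two-sided, and adjusted by Benjamini-Hochberg over all genes or pairs tested at 0.05. The tests were checked on simulated data in which genes varied independently apart from planted correlations. That check did not cover variation shared by many genes, as on the first principal component here. The series' design names 8 replicates from separate mice, so values vary with the mouse and the assay together. Each p-value sets the observed pairing of values against all orderings of the mice.

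The members, lists and rules were chosen with earlier results of these data known. Named are all members, the 3 brightest and the most variable detected genes of each list and up to 3 not detected, and the 3 genes most like each member. Star, Lcn2 in mouse 1, Atf3, Ccn1, Per1 among clock genes, Fabp4, Sfpq, Hspa1a, Hspa1b and the single markers were named after their values were seen. Alternatives were other scalings, thresholds, background genes, probe set rules, rank correlation and leaving out each mouse. Tests ran in scipy 1.17.1 and numpy 2.4.6 under Python 3.11.15, tables in pandas 2.3.3, and plots in matplotlib 3.10.9.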

Additional observations from a re-analysis of the deposited data

Results flagged for a closer look

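The 42 sets of 8 signals examined were 15 detected probe sets of the members and the detected genes named from the lists. On the log2 scale, 6 of them held a mouse far from the nearest other one relative to the range of all mice. About 1 in 20 sets is singled out in this way by chance, if sets are independent and not picked by their values. These sets share the same mice, and some were picked as the most variable of a list. The rate is therefore no measure of whether 6 is many. Of the 6, 4 were in mouse 1, and both sets of Depp1 are among these. Mouse 1 was low for both probe sets of Depp1 (134.7 and 174.8) and for the brighter set of Tsc22d3 (483.3). Mouse 1 was high for Cyp11a1 (461.6, against 305.8 to 358.5 in the others). Mouse 8 was high for Ncoa3 (7043), and mouse 3 was low for Tef (2410.3).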

How the results depend on the processing

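The count of detected members was 7 to 9 and that of pathway genes 69 to 88 under the 6 other ways of calling detection. Fkbp5 and Depp1 were lost at the 99th percentile, and Fkbp5 with the mean of all probe sets. The 276 genes whose probe sets agreed became 42 by rank correlation and 0 to 76 when a mouse was left out, where 5040 orderings allow no p below 0.000198. Pairs of a member with any gene that passed remained 0 except without the filter on low values, where 9 passed. Depp1 and Zbtb16 kept r from 0.91 to 0.99 and from 0.93 to 0.99 between their probe sets under all 12 alternatives, with adjusted p up to 0.125 and 0.0773. The mean of all probe sets turned Nr3c1 in mouse 1 to -0.16 (log2) and Nr3c1 with Depp1 to r = 0.28. The agreement of Nr3c1 probe sets turned to r = 0.14 with median scaling and ranged from -0.56 to 0.43 when a mouse was left out. The correlation of Fkbp5 with Zbtb16 was 0.07 to 0.84 under the 14 alternatives. The differences of mouse 1 under other scalings were added after the data were seen. Causes were not tested. No paired analysis was possible because all samples form 1 group. Signals near background, as for Fkbp5, limit what small differences can show.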
